A study of Mus musculus with 6 samples.

Results

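A set of 36 genes that mark macrophages, neutrophils, antigen presentation and lymphocytes was followed in whole mouse muscle, out of the 54532 genes in the deposited table. They were found by gene symbol, each matching 1 row. The rule uses no measured value, but the set was drawn up with earlier results of these data known. The series compared 3 control with 3 Igf2 cKO libraries, and its title ties lack of IGF2 to sarcopenia, the loss of muscle mass and function. All mice were of the C57BL/6 background and carried loxP sites around exon 2 on both alleles of Igf2 (Igf2f/f), the gene for insulin-like growth factor 2. Igf2 cKO mice were Mck-Cre+; Igf2f/f. Controls were Mck-Cre-; Igf2f/f littermates. Mck-Cre drives the recombinase from the muscle creatine kinase promoter, so the leukocytes described here are not its target cells. The labels used here give neither the muscle sampled nor age or sex. Values of a genotype are listed below in the order of replicates 1, 2 and 3.

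Macrophages live in the connective tissue between muscle fibres, clear debris and help repair after injury. They are recognised by surface receptors such as Csf1r and Adgre1, by the lysosomal protein Cd68 and by the complement subunits of C1q, which tag debris for uptake. Blood monocytes enter along the chemokine Ccl2 through its receptor Ccr2, and many then lower Ccr2 and take on resident markers such as Cd163 and Mrc1. MHC class II molecules, made from alpha and beta chains with the help of Cd74 and under the control of Ciita, present peptides to CD4+ T cells. Ccrl2 is an atypical receptor that binds chemerin and presents it to the signalling receptor Cmklr1 without signalling in the classical way itself. In bulk muscle RNA, fewer cells of a type and less RNA per cell cannot be told apart.

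Of the 33 members that could be tested, 1 passed. Ccrl2 fell in Igf2 cKO muscle, by 0.94 on the log2 scale. The other 32 did not pass the test, and control replicate 3 stood below both other controls in most macrophage and class II genes. Ccr2 came closest after Ccrl2, with non-overlapping groups but an adjusted p of 0.162 in edgeR's quasi-likelihood test.

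Whole libraries held between 16184371 and 17905203 counts. Markers of the muscle fibre, among them Acta1, Ckm and the myosin heavy chain Myh4, summed to between 107600 and 159800 CPM, the counts scaled to a common library size after TMM normalisation, so the defining genes of the labelled tissue were present. Igf2 itself had 39 to 60 counts in control and 33 to 42 in Igf2 cKO libraries, a log2 change of -0.31 ± 0.25 (SE) that did not pass (adjusted p = 0.751, edgeR). Its count is summed over the whole gene and does not show whether exon 2 was lost. The labels do not say whether the libraries of a group came from separate mice, so the p-values measure the spread between these libraries.

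Promoters are shown for 5 members: Ccrl2, H2-Aa, H2-Eb1, C1qb and Cd163. Ccrl2 was the 1 gene called. Cd163 alone of the 18 macrophage, C1q and Fc receptor members had a log2 change above 0, and it changed sign without control replicate 3. H2-Aa and H2-Eb1 are class II genes, and C1qb belongs to C1q, whose chains kept nearly fixed proportions. Each is the 250 bases before a RefSeq transcription start (GRCm38.p6), read 5′ to 3′ on the strand of the gene. Capitals mark any match, on either strand, to ATTGG (the Y box of class II promoters, an inverted CCAAT), to GAGGAA (the core bound by PU.1 and other Ets factors), to GGNNTTTCC (a kB site) or to GAAANNGAA (an element of interferon regulatory factors).

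Ccrl2 (chr9:111057519-111057768, minus strand): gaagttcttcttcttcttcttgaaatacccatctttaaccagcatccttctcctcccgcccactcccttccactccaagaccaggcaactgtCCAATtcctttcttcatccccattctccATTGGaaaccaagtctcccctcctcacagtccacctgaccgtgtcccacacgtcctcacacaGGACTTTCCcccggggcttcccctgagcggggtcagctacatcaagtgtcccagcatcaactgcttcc
H2-Aa (chr17:34287824-34288073, minus strand): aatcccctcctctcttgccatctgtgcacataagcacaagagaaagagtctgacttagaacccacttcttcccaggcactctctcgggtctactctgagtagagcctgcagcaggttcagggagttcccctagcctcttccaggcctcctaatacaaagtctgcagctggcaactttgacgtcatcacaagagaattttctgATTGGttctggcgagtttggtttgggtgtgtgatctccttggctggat
H2-Eb1 (chr17:34305617-34305866, plus strand): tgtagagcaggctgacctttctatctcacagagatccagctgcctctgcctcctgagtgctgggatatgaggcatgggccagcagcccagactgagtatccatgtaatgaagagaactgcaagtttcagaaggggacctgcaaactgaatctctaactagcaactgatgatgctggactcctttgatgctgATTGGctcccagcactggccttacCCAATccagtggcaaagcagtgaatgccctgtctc
C1qb (chr4:136886201-136886450, minus strand): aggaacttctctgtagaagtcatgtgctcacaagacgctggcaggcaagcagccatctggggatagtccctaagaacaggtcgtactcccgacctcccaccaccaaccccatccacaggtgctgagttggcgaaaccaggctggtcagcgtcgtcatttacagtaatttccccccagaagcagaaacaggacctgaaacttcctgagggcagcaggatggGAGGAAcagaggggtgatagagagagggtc
Cd163 (chr6:124304401-124304650, plus strand): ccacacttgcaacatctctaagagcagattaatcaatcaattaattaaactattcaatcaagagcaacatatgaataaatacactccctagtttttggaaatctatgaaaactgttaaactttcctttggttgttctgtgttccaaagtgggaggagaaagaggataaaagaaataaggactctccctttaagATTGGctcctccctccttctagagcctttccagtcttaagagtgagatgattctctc

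Matches did not overlap each other in these 5 windows. The Y box began 48 bases before the start in H2-Aa and 59 bases before it in H2-Eb1, where a copy in the other orientation followed. Cd163 held a Y box 57 bases before its start. Ccrl2 held both orientations of the Y box and a kB match that began 68 bases before this start, the outermost of its 3 RefSeq starts. The windows before the other Ccrl2 starts, not shown, held no match to any of the motifs. C1qb held 1 PU.1 core. Over all 32851 promoters of the table, 33.8% held the Y box, 23.3% the PU.1 core, 4.93% the kB site and 7.13% the interferon element. In the 31 promoter windows found for 27 of the members, some of which overlap, these motifs occurred in 10, 15, 5 and 4. A match is a description of letters and not a measured site.

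Levels of the members were compared with each other in the authors' FPKM, which divides by gene length. Cd74, the invariant chain of class II, was highest at 191 ± 39.3 FPKM over all 6 libraries (SD). Lyz2, lysozyme of macrophages and neutrophils, followed at 142 ± 37.8 FPKM, the class II chains H2-Eb1, H2-Ab1 and H2-Aa at 75.4, 56.3 and 49.0 FPKM, and C1qa, C1qb and C1qc at 50.5, 42.7 and 23.3 FPKM. Neighbours in this order overlapped in their ranges over the 6 libraries, except that every library of Lyz2 (104 to 189 FPKM) lay above every library of H2-Eb1 (62.0 to 97.4 FPKM). At the other end, Cd3e, a subunit of the T cell receptor complex, stood at 0.0756 ± 0.0543 FPKM and Nkg7 of cytotoxic lymphocytes at 0.448 ± 0.374 FPKM. Neutrophil and lymphocyte members all lay under 3 FPKM, whereas class II and C1q members other than Ciita (0.488 FPKM) lay above 20.

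**Figure D1:**
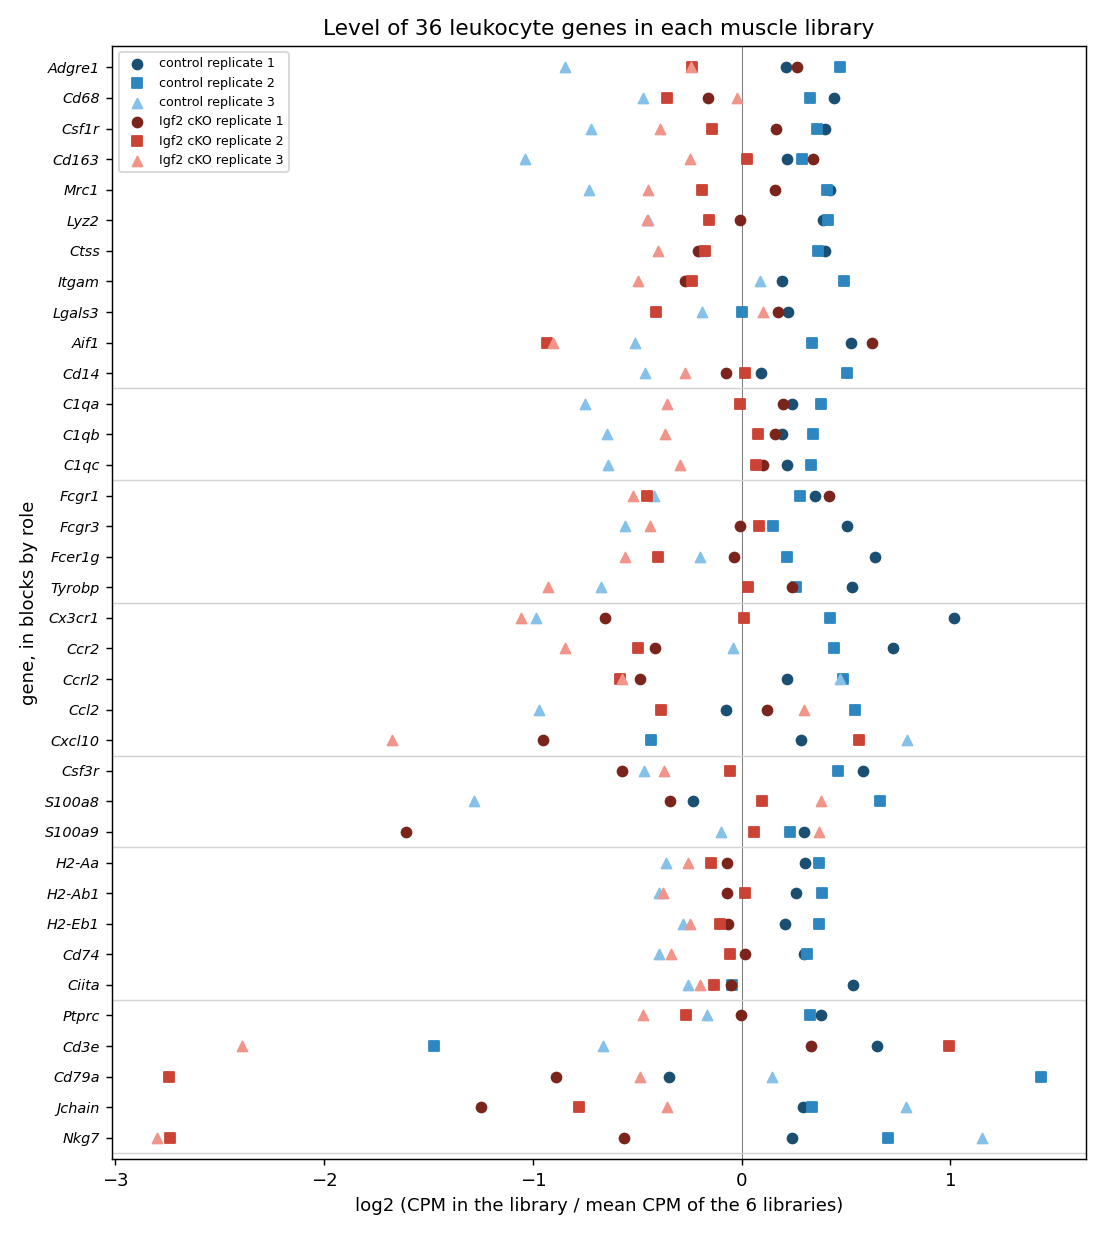
Each of the 36 genes is plotted on its own line, in blocks by role, as log2 of its CPM in a library over its mean CPM in the 6 libraries (blue, controls; red, Igf2 cKO). Control replicate 3 (light blue triangles) is the lowest point for 17 genes, most of them macrophage and class II genes, while in Ccrl2 the 3 controls sit together above the 3 Igf2 cKO libraries.

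Ccrl2 (ENSMUSG00000043953, chromosome 9, 111054486 to 111057519, minus strand) was at 16.2, 19.6 and 19.4 CPM in the controls and at 9.99, 9.34 and 9.40 CPM in the Igf2 cKO libraries. The groups did not overlap, and the Igf2 cKO libraries lay within 1 CPM of each other. Group means were 18.4 ± 1.87 and 9.58 ± 0.355 CPM (SD, n = 3 each). The log2 change was -0.94 ± 0.12 (SE), its 95% interval ran from -1.22 to -0.66, and it passed with adjusted p = 0.0244 in edgeR. In the same direction, 10 of the 14867 genes tested were called, 0.0673%. The authors' deposited table, which compares 1 Igf2 cKO library with the control of the same number, gives Ccrl2 log2 changes of -0.70, -1.07 and -1.04 and adjusted p of 1, 0.625 and 0.681.

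With any 1 library left out the fold change of Ccrl2 stayed between -1.02 and -0.90, but the call was kept only without Igf2 cKO replicate 2 (adjusted p = 0.0441, edgeR). It was lost without control replicate 1 (0.0503), control replicate 2 (0.126), control replicate 3 (0.117), Igf2 cKO replicate 1 (0.0587) and Igf2 cKO replicate 3 (0.116). Over all alternatives the adjusted p of Ccrl2 ran from 8.14e-06 with DESeq2 to 0.126.

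Ccr2 (chromosome 9, 124101950 to 124113557, plus strand), which brings monocytes out of the blood, was at 20.03, 16.5 and 11.8 CPM in the controls. The Igf2 cKO libraries held 9.09, 8.60 and 6.74 CPM. All controls lay above all Igf2 cKO libraries, with control replicate 3 nearest to them. The log2 change was -0.99 ± 0.21 (SE), its 95% interval ran from -1.46 to -0.51, and the adjusted p was 0.162 in edgeR, 0.00414 by DESeq2, 0.00155 by edgeR without a filter on low counts, and up to 0.397 over the alternatives (without control replicate 2).

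Cx3cr1, the fractalkine receptor of patrolling monocytes and resident macrophages, was at 4.98, 3.30 and 1.24 CPM in controls and 1.56, 2.48 and 1.18 CPM in Igf2 cKO libraries. Its groups overlapped (log2 change -0.88 ± 0.49 SE, adjusted p = 0.613, edgeR). The listed span of Cx3cr1 also covers the abundant muscle gene Xirp1 on the same strand, which had 2714 to 6149 counts, so a share of its few reads may be misplaced. The chemokines themselves were scarce. Ccl2, which attracts Ccr2+ monocytes, had 12 to 40 counts per library, with a log2 change of 0.07 (95% interval -0.86 to 1.00). Cxcl10, an interferon-induced attractant of T cells that lies within Art3 on the opposite strand, had 4 to 20 counts (-0.68, 95% interval -2.02 to 0.67).

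**Figure D2:**
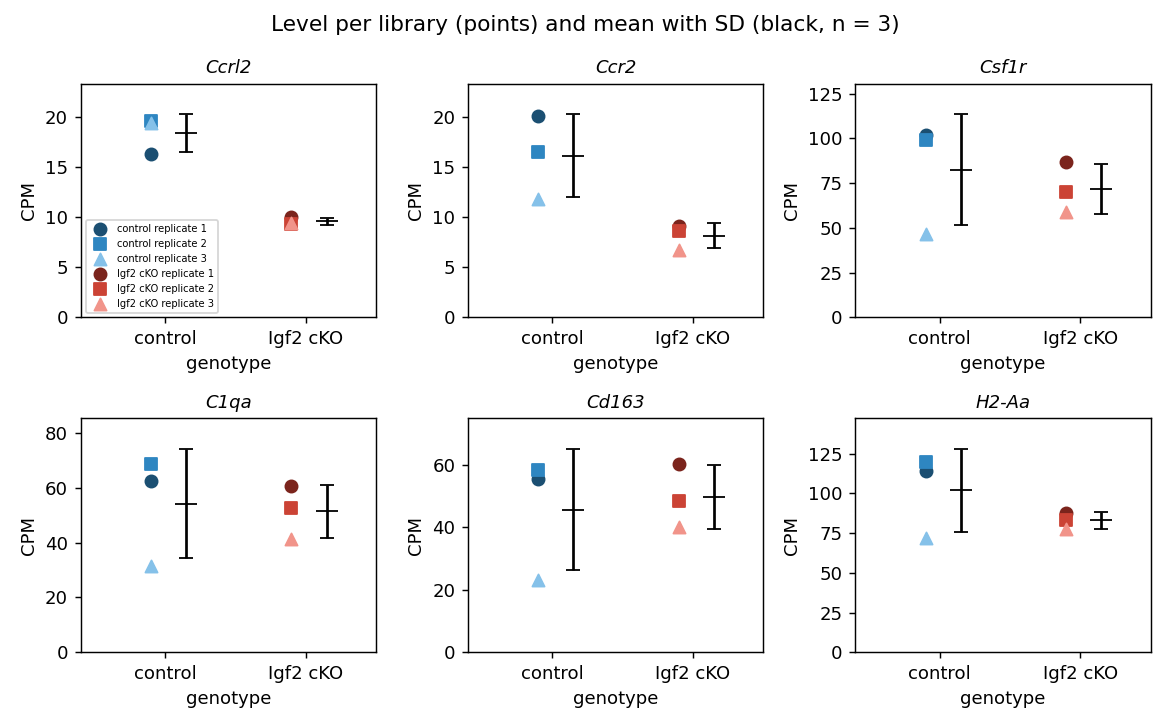
CPM of 6 genes in each library, with the mean and SD (n = 3) of each genotype in black. Ccrl2 and Ccr2 separate the genotypes, while in Csf1r, C1qa, Cd163 and H2-Aa control replicate 3 lies at or below the Igf2 cKO libraries and the other controls at or above most of them.

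Macrophage surface and lysosomal genes were not called in either direction. Csf1r, the receptor that macrophages need to survive, was at 101.8, 99.0 and 46.8 CPM in the controls and at 86.6, 70.0 and 58.8 CPM in the Igf2 cKO libraries. Control replicates 1 and 2 were the highest of all libraries and control replicate 3 the lowest. Its log2 change was -0.20 ± 0.28 (SE, adjusted p = 0.872, edgeR). Adgre1 (F4/80) and Mrc1 (the mannose receptor CD206) were also lowest in control replicate 3, with controls at 23.0, 27.5 and 11.1 CPM and at 78.5, 77.8 and 35.3 CPM. Their Igf2 cKO libraries ran from 16.8 to 23.9 and from 42.9 to 65.4 CPM, so the groups overlapped in both genes.

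Cd163, the haemoglobin scavenger receptor of resident macrophages, was 1 of 3 tested members with a positive fold change. It was at 55.5, 58.3 and 23.3 CPM in controls and at 60.5, 48.5 and 40.3 CPM in Igf2 cKO libraries, with a log2 change of 0.12 ± 0.31 (SE, adjusted p = 0.94, edgeR) that turned to -0.19 without control replicate 3 and to -0.05 without Igf2 cKO replicate 1. Lyz2 was at 246, 251 and 138 CPM in controls and at 187, 169 and 138 CPM in Igf2 cKO libraries, so that replicate 3 was lowest in both genotypes, at one level. Lyz1, its near-identical copy, had 169 to 453 counts, and reads may be split between them.

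Ctss, the lysosomal protease cathepsin S, was at 29.5, 28.8 and 19.7 CPM in controls against 16.9 to 19.8 CPM in Igf2 cKO libraries (log2 change -0.48 ± 0.16 SE, adjusted p = 0.361, edgeR). Itgam (CD11b), an integrin of monocytes and neutrophils, was at 4.01, 4.92 and 3.73 CPM in controls and at 2.90, 2.97 and 2.48 CPM in Igf2 cKO libraries. Its groups did not overlap, with a log2 change of -0.60 ± 0.22 (SE, adjusted p = 0.399, edgeR). The other members of this block overlapped between genotypes. They were Cd68, Aif1 (IBA1), the lipopolysaccharide co-receptor Cd14 and Lgals3 (galectin-3), with log2 changes of -0.33, -0.38, -0.21 and -0.04.

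The C1q chains kept nearly fixed proportions from library to library. C1qa was at 62.5, 68.8 and 31.5 CPM in controls and at 60.6, 52.7 and 41.2 CPM in Igf2 cKO libraries. C1qa over C1qb lay between 1.1 and 1.22 in all 6 libraries in FPKM, and C1qc over C1qb between 0.524 and 0.573. The 3 genes lie side by side on chromosome 4, between 136880129 and 136898803, all on the minus strand. Their genotype differences were the smallest of any block, with log2 changes of -0.08, -0.05 and -0.06 for C1qa, C1qb and C1qc and 95% intervals that reached from -0.69 to 0.53. Each turned positive, up to 0.13, without control replicate 1, control replicate 2 or Igf2 cKO replicate 3.

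Fc receptors bind antibody and signal through small adaptor chains. Of these 4 genes 0 were called by edgeR, limma-voom or DESeq2. Fcer1g alone was lower at an unadjusted p under 0.05 in edgeR, against 4.82% of all tested genes. Fcer1g, the common gamma chain, was at 14.6, 10.9 and 8.17 CPM in controls and 9.15, 7.12 and 6.39 CPM in Igf2 cKO libraries (log2 change -0.58 ± 0.23 SE, adjusted p = 0.461, edgeR). Tyrobp (DAP12), Fcgr3 and Fcgr1 had log2 changes of -0.26, -0.20 and -0.23, and all their groups overlapped.

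Class II genes were not called in either direction. H2-Aa, H2-Ab1, H2-Eb1, Cd74 and Ciita were each lowest in control replicate 3. H2-Aa, the alpha chain of I-A, was at 114, 119.6 and 72 CPM in controls and at 87.9, 83.4 and 77.4 CPM in Igf2 cKO libraries. Log2 fold changes of the 5 genes lay between -0.30 (H2-Aa) and -0.23 (Cd74), with adjusted p from 0.638 by edgeR upward and 0 called by edgeR, limma-voom or DESeq2, and 0 at an unadjusted p under 0.05. Cd74 over the sum of the H2-Aa, H2-Ab1 and H2-Eb1 chains lay between 1.02 and 1.12 in every library in FPKM. Ciita, the master regulator, was present at 60 to 125 counts per library and overlaps Dexi on the opposite strand.

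Neutrophil members were near the limit of detection. S100a8 and S100a9, the calprotectin subunits that fill neutrophils, had 4 to 18 and 7 to 27 counts per library, and their intervals included changes in both directions (-1.04 to 1.29 and -1.40 to 0.72 on the log2 scale). Csf3r, the receptor of granulocyte colony-stimulating factor, had 55, 49 and 22 counts in controls and 24, 31 and 26 in Igf2 cKO libraries (-0.59, adjusted p = 0.625, edgeR). By edgeR, DESeq2 and limma-voom 0 of the 3 were called, and 0 had an unadjusted p under 0.05.

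Pan-leukocyte and lymphocyte genes gave 0 calls of 2 tested by edgeR, limma-voom or DESeq2. Both were lower at an unadjusted p under 0.05 in edgeR, against 4.82% of all tested genes. Ptprc (CD45, carried by all leukocytes) was at 18.03, 17.4 and 12.4 CPM in controls and 13.8, 11.5 and 9.99 CPM in Igf2 cKO libraries, with a log2 change of -0.44 ± 0.18 (SE, adjusted p = 0.477, edgeR). Jchain, which joins polymeric antibodies in plasma cells, had 12, 12 and 14 counts in controls and 4, 5 and 7 in Igf2 cKO libraries (log2 change -1.22 ± 0.43 SE, adjusted p = 0.384, edgeR). Nkg7 had 9, 12 and 14 counts in controls against 5, 1 and 1, and Cd79a, the B cell receptor subunit, 6, 20 and 7 against 4, 1 and 5. Cd3e had 9, 2 and 3 counts in controls and 7, 10 and 1 in Igf2 cKO libraries, with no order by genotype. Nkg7, Cd79a and Cd3e were under the low-count filter and were not tested.

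Markers of red cells, which come with blood, also had lower values in Igf2 cKO muscle. The 7 erythroid markers, led by the globin gene Hbb-bs, summed to between 449.5 and 617.7 CPM in controls and to between 313 and 358 CPM in Igf2 cKO libraries. Of the 7, 5 were tested, and the groups of these 5 did not overlap, where 7.67% of all tested genes lay apart and lower. All 5 had an unadjusted p under 0.05, against 4.82% of tested genes with a lower level. By edgeR and limma-voom 0 were called, and by DESeq2 3, out of 220 genes that DESeq2 called in all. Slc4a1 had 0 to 5 counts per library. Globin genes are close copies, between which reads may be split. The part of blood content in the lymphocyte and monocyte values was not tested.

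Over the whole set, 33 of 36 members passed the low-count filter. Of these, 30 had a log2 change below 0 and 3 (Cd163, Ccl2 and S100a8) above it, where 49.2% of all tested genes lay below 0. The median was -0.26, against 0.00 over all tested genes. Without the filter all 36 could be fitted, 32 lay below 0, and the median was -0.27. An unadjusted p under 0.05 with a lower level was found for 7 members (Ccrl2, Ccr2, Ctss, Itgam, Fcer1g, Ptprc and Jchain), and for 4.82% of all tested genes. Groups lay apart, lower in Igf2 cKO, in 4 of the 33 tested members (Ccrl2, Ccr2, Itgam and Jchain), and in 7.67% of all tested genes. They also lay apart in Cd79a and Nkg7, which were not tested. The members share cells and libraries and are not independent of each other.

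**Figure D3:**
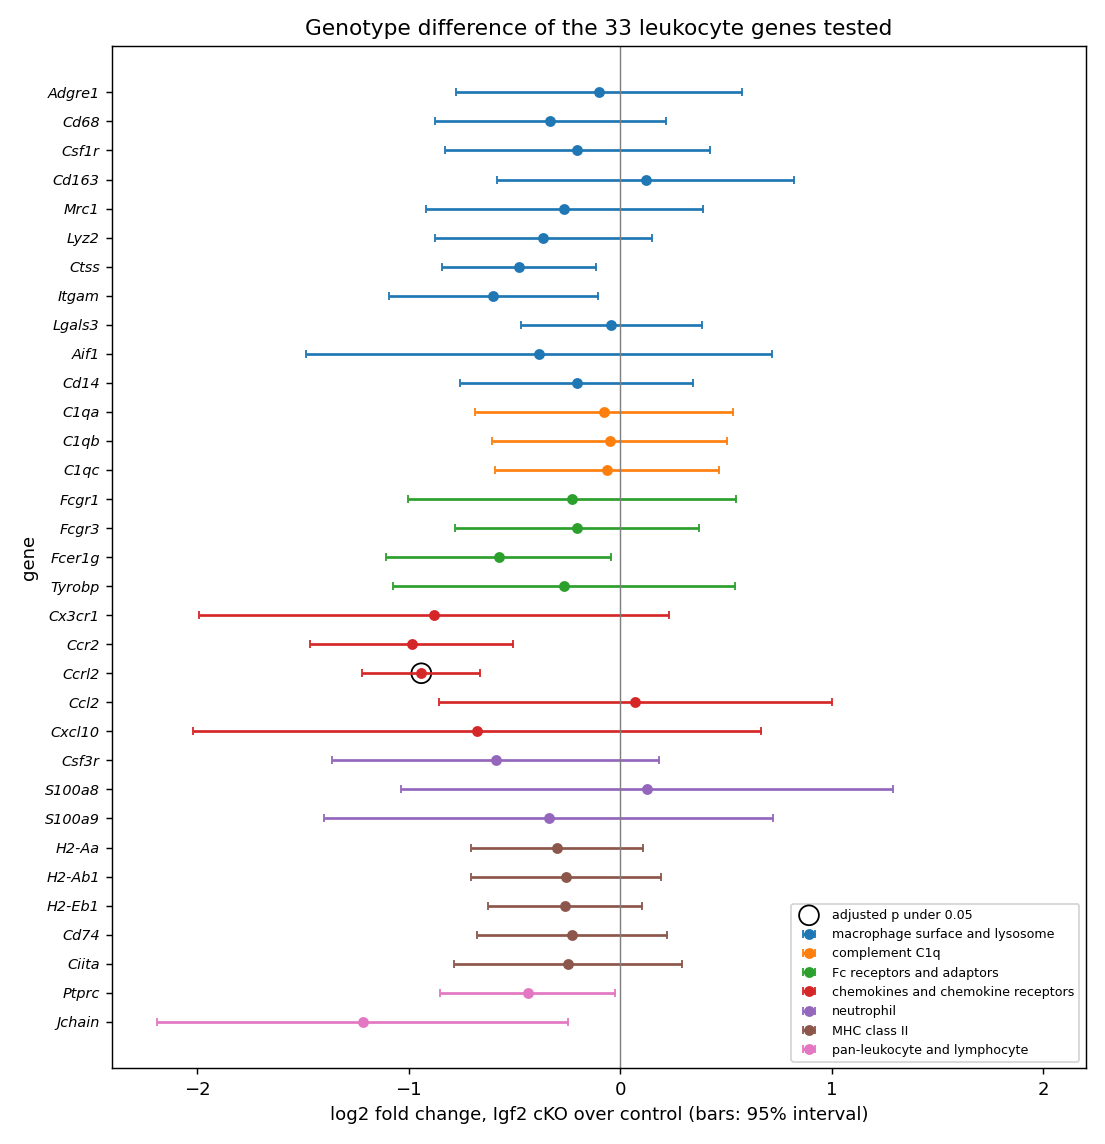
Log2 fold change of Igf2 cKO over control with its 95% interval for the 33 genes that passed the low-count filter, coloured by role; the open circle marks an adjusted p under 0.05 by edgeR. Ccrl2 at -0.94 is the 1 circled gene, and most other intervals cross 0, with Lgals3 and the C1q genes among the closest to it.

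Control replicate 3 stood apart from the other controls. It was below both other controls in 30 of the 36 members, against 36.4% of all tested genes, and at least 1.5-fold below their mean in 25 members, against 9.07% of tested genes. The 18 macrophage, C1q and Fc receptor members summed to 794, 808 and 416 CPM in the controls and to 675, 585 and 481 CPM in the Igf2 cKO libraries. The median coefficient of variation of the 36 members was 31.8% in controls and 18.9% in Igf2 cKO muscle, where all tested genes had 11.9% and 12.6%. Ccrl2 was among the members that did not follow this pattern. Its level in control replicate 3 was 1.08 times the mean of the other controls, where that of Csf1r was 0.466 times and that of H2-Aa 0.616 times. Cxcl10, Nkg7 and Jchain, which had few counts, stood at 1.77, 1.58 and 1.39 times.

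Control replicate 3 was singled out for its low values in these same members, so leaving it out must lower their log2 changes. The fit without it is therefore a description and no separate evidence. Without control replicate 3, all 33 tested members had a log2 change below 0 and the median became -0.46. In edgeR, 17 members then had an unadjusted p under 0.05 with a lower level, against 5.57% of all tested genes in that fit. No member was then called by edgeR, Ccrl2 included. Without control replicate 1 or 2, 25 members lay below 0 in each case and the median was -0.18 and -0.19. At that p, 5 and 3 members were lower in these fits, against 3.88% of all tested genes in each. Without Igf2 cKO replicate 1, 2 or 3 they were 8, 6 and 4 members, against 4.49%, 5.55% and 3.83% of all tested genes. By role, the medians without control replicate 3 were -0.55 for macrophage surface and lysosomal genes, -0.31 for C1q, -0.49 for Fc receptors and adaptors and -0.43 for class II, where all 6 libraries gave -0.26, -0.06, -0.25 and -0.26. In the same order they were -0.16, 0.04, -0.05 and -0.18 without control replicate 1. Without control replicate 2 they were -0.11, 0.12, -0.20 and -0.13. In the authors' deposited table, 31 and 34 of the 36 members were lower in the comparisons of replicates 1 and 2, and 16 in that of replicate 3, and 0 had an adjusted p under 0.05 in any.

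Markers of several other cells were also low in control replicate 3. The 7 fibroblast markers, led by collagen genes and Dcn, summed to 8131, 6431 and 3534 CPM in controls and to 6258, 5117 and 4286 CPM in Igf2 cKO libraries. All 7 were tested and lay below 0, where 49.2% of all tested genes did. Of these 7, 0 were called by edgeR, limma-voom or DESeq2, with 0 at an unadjusted p under 0.05. The 8 adipocyte markers summed to 1111, 1094 and 769 CPM in controls and to 922, 879 and 1850 CPM in Igf2 cKO libraries. They were lowest in control replicate 3 for 6 of 8 genes and highest in Igf2 cKO replicate 3 for all 8, and Igf2 cKO replicate 3 was the lowest library for 12 of the 36 members. The 10 muscle fibre markers ran the other way, at 159800 CPM in control replicate 3 against 137500 and 135800 CPM in the other controls. Endothelial markers, which bear on Ccrl2 because endothelium also makes it, summed to between 1477 and 1704 CPM in controls and 1084 and 1583 CPM in Igf2 cKO libraries. Of the 9, 3 had an unadjusted p under 0.05 with a lower level, against 4.82% of all tested genes, while edgeR, limma-voom and DESeq2 called 0. No marker list was at 0 in any library. The part of the tissue sampled in these values was not tested.

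**Figure D4:**
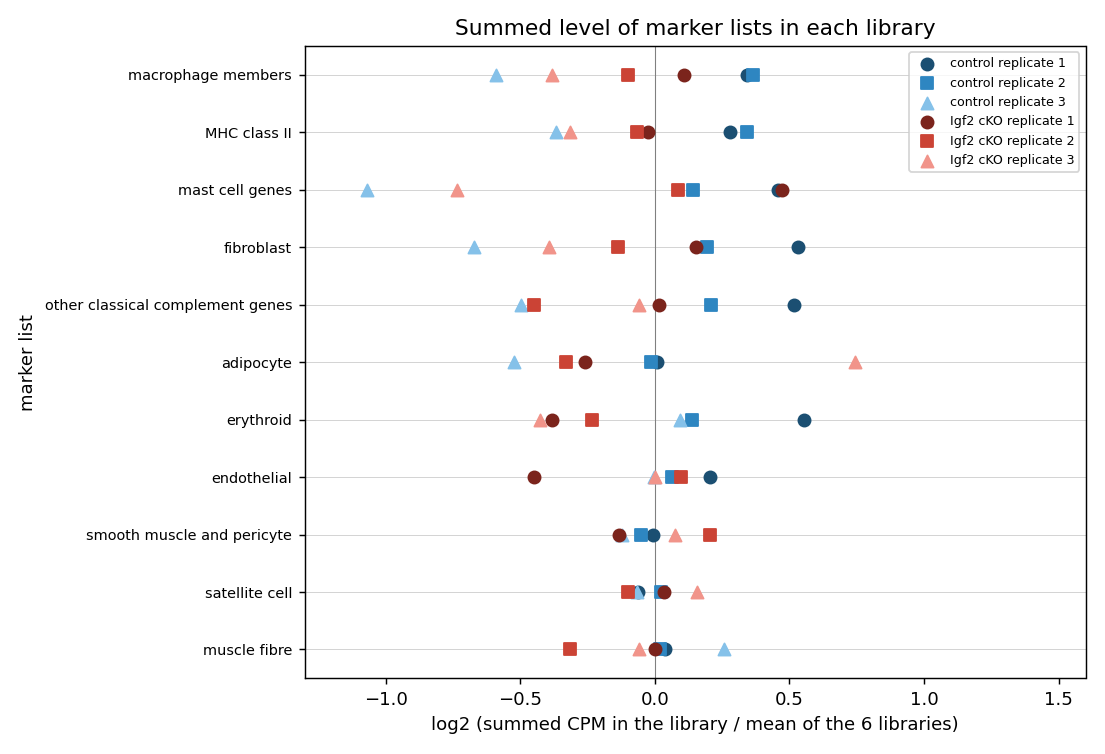
Summed CPM of marker lists in each library as log2 over the mean of the 6 libraries (blue, controls; red, Igf2 cKO). Macrophage members, class II, mast cell, fibroblast and complement lists are lowest in control replicate 3, muscle fibre markers are highest there, and erythroid markers are lower in all Igf2 cKO libraries.

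Ratios between members within a library divide out whatever changes both alike. A set of 14 ratios of FPKM was computed, with the levels already known, and is given with no test. In 5 of the 14 the groups did not overlap. All but Cd163 over Csf1r of these have Ccr2 or Ccrl2 on top, and both genes were already apart and lower in Igf2 cKO. Their ratios reuse those values, share genes with each other and are no separate evidence. No share of separated ratios was computed for other pairs of genes. Ccr2 over Cd163, a monocyte gene over a resident macrophage gene, was 0.292, 0.228 and 0.408 in controls and 0.121, 0.143 and 0.135 in Igf2 cKO libraries. Ccr2 over the summed C1q chains was 0.0206 ± 0.00395 in controls and 0.0105 ± 0.000298 in Igf2 cKO libraries (SD, n = 3 each). Cd163 over Csf1r was 0.487, 0.527 and 0.445 in controls against 0.625, 0.620 and 0.613. Ccr2 over Mrc1 was 0.24, 0.2 and 0.315 in controls and 0.131, 0.158 and 0.148 in Igf2 cKO libraries. The controls lay above the Igf2 cKO libraries in all ratios of Ccr2 and below them in that of Cd163. Ccrl2 over the summed C1q chains was also apart, at 0.0458, 0.0502 and 0.102 in controls and 0.0292, 0.0298 and 0.0393 in Igf2 cKO libraries. Ccrl2 over Ptprc overlapped, at 6.35, 7.93 and 11 in controls and 5.09, 5.72 and 6.63 in Igf2 cKO libraries. Ratios within a structure, such as H2-Aa over H2-Ab1 (0.884 ± 0.0196 and 0.864 ± 0.084), did not separate the groups.

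Listed genes of the same pathways gave 0 calls by edgeR. Counts in these lists stand beside 49.2% of all tested genes below 0 and 4.82% lower at an unadjusted p under 0.05. Groups lay apart and lower in 7.67% of all tested genes. No share at that p or of groups apart was computed for the higher direction. In the list of further macrophage and monocyte genes, 43 of 44 were tested, 36 lay below 0 (median -0.27), and 7 lower and 1 higher had an unadjusted p under 0.05, while DESeq2 and limma-voom also called 0. The smallest p-values were those of Cd52 (log2 change -0.99, adjusted p = 0.279, edgeR), a surface glycoprotein of leukocytes, and of the integrin Itgax (-0.92, adjusted p = 0.352). Among 21 tested chemokines and receptors of 35, 3 were lower and 1 higher at an unadjusted p under 0.05, with 0 called by DESeq2 or limma-voom. Cxcr4, the receptor of Cxcl12, was at 12.7, 14.8 and 10.9 CPM in controls and 6.92, 9.72 and 7.92 CPM in Igf2 cKO libraries (-0.65, adjusted p = 0.263, edgeR). Ackr3, the scavenger receptor for the same chemokine, was at 47.3 to 75.1 CPM in controls and at 79.8 to 103.5 CPM in Igf2 cKO libraries (0.59, adjusted p = 0.284, edgeR). Cxcr4 and Ackr3 each had non-overlapping groups, in opposite directions. Without the filter on low counts edgeR called Ackr3 (adjusted p = 0.0311) and Ccl8, a ligand of monocyte receptors (log2 change -1.56, adjusted p = 0.0108), which is named because it was called there.

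In the chemerin axis that Ccrl2 serves, Cmklr1, the signalling receptor, was at 29.8, 32.1 and 19.95 CPM in controls and at 37.7, 35.2 and 36.8 CPM in Igf2 cKO libraries (log2 change 0.42 ± 0.16 SE, adjusted p = 0.443, edgeR). Gpr1, the other receptor, lay at -0.84 (adjusted p = 0.506). The 2 receptors thus had non-overlapping groups in opposite directions. Gpr1 was apart and lower, where 7.67% of all tested genes were. Cmklr1 was apart and higher, a direction for which no such share was computed. Without control replicate 3 the log2 change of Cmklr1 was 0.24. By edgeR, limma-voom or DESeq2 0 of 3 genes of this list were called. At an unadjusted p under 0.05 in edgeR, 1 (Cmklr1) was higher and 0 were lower. Growth factors and receptors of myeloid cells gave 0 calls of 5 tested by these 3 tools. At an unadjusted p under 0.05, 2 were lower, against 4.82% of all tested genes, and 1 was higher. Csf1, the ligand of Csf1r, was at 53.0, 52.6 and 37.1 CPM in controls and 35.98, 38.1 and 32.5 CPM in Igf2 cKO libraries (-0.42, adjusted p = 0.38, edgeR), and the receptor subunit Csf2rb had a log2 change of -0.78 (adjusted p = 0.345, edgeR; called without the filter on low counts).

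Among further class II pathway genes, H2-DMb2, a chain of the peptide-loading factor H2-DM, was at 1.90, 2.01 and 1.70 CPM in controls and 0.948, 0.371 and 0.414 CPM in Igf2 cKO libraries. Its groups did not overlap. The log2 change was -1.67 ± 0.40 (SE), with an adjusted p of 0.201 by edgeR, 0.0499 by DESeq2 and 0.0476 by edgeR without a low-count filter. Near-identical H2-DMb1 can share its reads. It was the 1 gene of these 16 tested with an unadjusted p under 0.05, and limma-voom called 0. Ctsl, cathepsin L, came next at -0.22 (adjusted p = 0.534, edgeR).

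MHC class I genes, which most cells express, had a median of -0.03 over 10 tested, with 0 called by edgeR, limma-voom or DESeq2 and 0 at an unadjusted p under 0.05; the peptide transporter Tap1 was at -0.22 and the immunoproteasome gene Psmb8 at -0.12. Complement genes beyond C1q had a median of -0.28 over 8 tested, all below 0, with 0 calls by the 3 tools and 0 at an unadjusted p under 0.05. C3 was at 356, 277 and 153 CPM in controls and 225, 114 and 233 CPM in Igf2 cKO libraries, and Cfp (properdin) had a log2 change of -0.38. For T, B, plasma and NK cells, 10 of 29 further genes were tested, and 0 were called by the 3 tools. At an unadjusted p under 0.05, 4 were lower, against 4.82% of all tested genes. Ptprcap, a partner of CD45 in lymphocytes, was at -0.96 (adjusted p = 0.43, edgeR) and the antibody light chain Igkc at -1.07 (adjusted p = 0.477, edgeR).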

How the data were processed

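RNA of mouse muscle was sequenced on an Illumina NovaSeq by a commercial service, per the labels' protocols. Aligner, counting tool, strand setting and build were not given in the sources used here. The deposited table holds, per the file headers, a raw count and an FPKM per gene and library, and the authors' log2 fold change, p-value and adjusted p-value for 3 comparisons of single libraries. Another 6 columns of per-sample values match no sample title and were not used. Coordinates are the table's. Of 54495 gene identifiers found in GENCODE M21 (GRCm38), 98.3% have the same start and end there, as do 30 of the 36 members.

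Counts were tested with edgeR 4.0.16 in R 4.3.3 (quasi-likelihood F test, genotype as the single term, TMM, filterByExpr, Benjamini-Hochberg over 14867 genes, called at an adjusted p under 0.05). Standard errors derive from the F statistic. All adjusted p-values come from this fit unless another tool is named. Alternatives were other size factors, library sizes without mitochondrial DNA genes, other filters, DESeq2 1.42.0, limma-voom (limma 3.58.1), a replicate block, a call at adjusted p under 0.1, the cut-off of the series (absolute log2 fold change over 1 at an unadjusted p under 0.05) and leaving out single libraries. FPKM was used as deposited to compare levels between genes and for ratios. The fit was tested on simulated data.

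The members and gene lists were chosen with earlier results of these data known. Named genes are all members and, from each pathway list, the called genes or otherwise the 2 with the smallest p. Other genes were named after their values were seen. A planned comparison of protein sequences was not run. By plan, promoters were searched only for members off chromosome 18, which leaves out Csf1r, Cd14 and Cd74. Other members without a usable entry in the RefSeq promoter table also have no promoter here.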

Additional observations from a re-analysis of the deposited data

How the results depend on the processing

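The median log2 fold change of the tested members, -0.26 over all 6 libraries, stayed below 0 under every alternative run, and between -0.46 and -0.18 with 1 library left out. The count of called members was 1 and became 2 (Ccrl2 and Ccr2) with no filter on low counts and with DESeq2, and 0 with the replicate block. It lay between 0 and 1 with 1 library left out. Under the rule of the series the count was also 1, but the gene was Jchain (log2 change -1.22), which had few counts. Ccrl2 (-0.94) fell short of the fold limit of that rule. Same-numbered control and Igf2 cKO libraries had correlations of 0.163, 0.058 and -0.043 in their deviations from the group means, so the numbers were not taken as pairs. With the replicate block the adjusted p of Ccrl2 was 0.0634 at a log2 fold change of -0.94. Over all genes the count of calls was 37. It became 282 with no filter, 220 with DESeq2, 62 at an adjusted p under 0.1 and 235 under the rule of the series, and lay between 8 and 68 with 1 library left out. Of 764 values of 55 named genes under alternatives, 726 kept their direction and side of the threshold, 6 lost a call (all Ccrl2), 6 gained one and 26 changed sign without a call in either fit. Members under about 30 counts per library, such as the neutrophil and lymphocyte genes, allow only large differences to be seen.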

Other observations

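Mast cells, which sit beside vessels in muscle connective tissue, bind stem cell factor through Kit and store proteases. All 7 mast cell genes were lowest in control replicate 3. They summed to 68.0, 54.7 and 23.6 CPM in the controls and to 68.7, 52.6 and 29.7 CPM in the Igf2 cKO libraries. Mcpt4, a mast cell chymase, was at 18.4, 13.8 and 4.58 CPM in controls and 21.3, 16.2 and 5.14 CPM in Igf2 cKO libraries, so its groups covered the same range. Its log2 change was 0.21 ± 0.55 (SE, adjusted p = 0.942, edgeR), and that of Kit, the stem cell factor receptor, was -0.15 (adjusted p = 0.899). Of 5 mast cell genes tested, 0 were called by edgeR, limma-voom or DESeq2, with 0 at an unadjusted p under 0.05.

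Dendritic cell genes did not share the low value of control replicate 3. They summed to 33.02, 24.1 and 26.6 CPM in controls and 25.2, 34.5 and 29.0 CPM in Igf2 cKO libraries. Xcr1, a receptor of cross-presenting dendritic cells, was at -1.20 on the log2 scale (adjusted p = 0.498, edgeR) and Zbtb46, which endothelium also expresses, at 0.24 (adjusted p = 0.726). By edgeR, DESeq2 and limma-voom 0 of 5 were called. In edgeR 1 was lower at an unadjusted p under 0.05, against 4.82% of all tested genes. Of the 6 listed genes, tested or not, 2 lay apart and lower in Igf2 cKO, where 7.67% of all tested genes did. Further neutrophil genes were sparse, with 2 of 11 tested and 0 called by the 3 tools or at an unadjusted p under 0.05. Lcn2 (lipocalin 2) was at 0.90 (adjusted p = 0.507, edgeR) and the matrix protease gene Mmp9 at -0.41 (adjusted p = 0.715). Fcgr2b, the inhibitory Fc receptor close to Fcgr3 in sequence, had 429, 398 and 181 counts in controls and 340, 234 and 238 in Igf2 cKO libraries.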
